A study of Mus musculus with 6 samples.

Results

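Imprinted growth regulators were examined in cells sorted from the subventricular zone of adult mice, the neurogenic niche beside the lateral ventricles. The 10 genes Igf2, H19, Dlk1, Peg3, Plagl1, Ndn, Grb10, Zdbf2, Nnat and Mest were taken by symbol from the 55487 rows of the expression table, and each matched 1 row. Knockout cells carried E2F1(-/-);E2F3(F/F) and heterozygous cells E2F1(+/-);E2F3(F/+), with 3 libraries each, called A, B and C, whose values are listed below in that order. All mice were of mixed C57BL/6;Sv/129;FVB/N background and carried NestinCreERT2/R26;EYFP, a Cre that tamoxifen switches on in cells using the Nestin promoter and a yellow fluorescent reporter that marks those cells and their descendants. Mice entered the protocol at 6 to 10 weeks of age and were gavaged with tamoxifen (200 mg/kg per day over 5 days). The tissue was dissected 10 days later, and several mice went into each library so that at least 200000 reporter-positive cells were sorted. The heterozygous cells are not wild type, since they lack 1 allele of each gene once Cre has acted. Both E2f genes differ between the groups, so effects of the 2 genes cannot be told apart.

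Imprinted genes are expressed mainly or only from the copy inherited from 1 parent, under the control of DNA methylation laid down in the germ line. Many act on growth: those expressed from the paternal copy often promote it and those expressed from the maternal copy often restrain it. They lie in clusters in which a protein-coding gene and a non-coding RNA are commonly expressed from opposite copies. Igf2 and H19, or Dlk1 and Meg3, are such pairs in many tissues. In the mouse subventricular zone Igf2 and Dlk1 are known as niche and stem cell factors that take part in adult neurogenesis. The values below are totals of both parental copies, because allelic expression was not measured.

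Expression is given as normalized reads, the reads of a gene divided by 1 size factor per library. A gene was called higher or lower when its Benjamini-Hochberg adjusted p was under 0.05 in a limma fit over the 18227 genes with a mean of at least 10 normalized reads. Differences are knockout minus heterozygous on the log2(normalized reads + 1) scale, which understates ratios of low genes. Among the members 9 passed that minimum and Igf2 did not. Of the 9, H19 and Plagl1 were called higher in knockout cells (7.23% of all tested genes were) and 0 were called lower (8.59% of all tested genes were). In either direction this is 2 of 9, against 15.8% of all tested genes, so the share of calls was near the background. At an unadjusted limma p under 0.05 there was 1 further member, Mest, on the lower side. edgeR on the recovered reads also called 2 of the members higher and 0 lower, against 16% of the genes it tested, and DESeq2 gave the same counts of members. Without knockout B, heterozygous A or heterozygous B 0 members were called higher, without knockout A or C 1 was, and without knockout C 1 was called lower. The authors' deposited table likewise called H19 and Plagl1 at an adjusted p under 0.05, against 14.3% of its tested genes. The knockout and heterozygous libraries did not overlap for 3 of the 9 members, against 38.7% of all tested genes. The median difference of the 9 was -0.06, against 0.05 over all tested genes.

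The sequences before transcription start sites are shown first for the genes whose promoter holds letters of an E2F site, since E2F factors were the targets of the knockout. RefSeq promoters on GRCm38.p6 were found for 9 of the 10 members, with 16 start sites, and the 250 bases before each were searched on both strands for TTTCCCGC, TTTGGCGC, TTTCGCGC and TTTGCCGC. These letters occurred before 2 of the 16 members' start sites and before 1.86% of the 32851 start sites in the table. The 2 were those of Plagl1 and of Zdbf2. Among 25 start sites of genes that maintain imprints or act on DNA methylation, 3 had the letters. Among 39 of the members' imprinted neighbours 1 had them, and among 45 of other imprinted genes 0. For these genes, 30 bases are given 5′ to 3′ on the strand of the gene, with the matching letters or their reverse complement in capitals.
Plagl1: tggcgtgttgcGCGGCAAAgcccacggcat
Zdbf2: cgctttgcggcTTTGCCGCcttcacagatg
Hells: gaccaccgggtTTTCCCGCgaaagagaagc
Uhrf1: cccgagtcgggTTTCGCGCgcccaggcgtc
Dnmt1: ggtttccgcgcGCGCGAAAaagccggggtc
Atp10a: ggctctttttgTTTCCCGCtatccgcccaa
The Plagl1 letters began 90 bases before the start site (chr10:13090731-13090760, plus strand) and the Zdbf2 letters 138 bases before it (chr1:63200209-63200238, plus strand). Those of Hells began 62 bases before the start site (chr19:38930917-38930946, plus strand). Those of Uhrf1 began 185 bases before it (chr17:56304117-56304146, plus strand). Those of Dnmt1 began 219 bases before it (chr9:20952824-20952853, minus strand), and those of Atp10a 78 bases before it (chr7:58658113-58658142, plus strand). The Zdbf2 start is one that RefSeq places upstream of the main gene. The Plagl1, Hells and Dnmt1 stretches also lie within annotated exons. A match describes the letters of the reference sequence, and binding was not measured. As the following values show, these genes did not share a direction: Plagl1 was called higher in knockout cells, Hells, Uhrf1 and Dnmt1 were called lower, and Zdbf2 and Atp10a were not called.

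Plagl1 and H19 were the members called higher. Plagl1 (ENSMUSG00000019817, GRCm38 chromosome 10, 13060504 to 13131694, plus strand), also known as Zac1, encodes a paternally expressed zinc finger transcription factor that can arrest the cell cycle and regulates other imprinted genes. It was at 1382, 1392 and 2092 normalized reads in knockout A to C, against 785, 381 and 962 in heterozygous A to C. Every knockout library lay above every heterozygous one, and heterozygous B was the lowest of the 6. The log2 difference was 1.27 ± 0.34 (SE), a 2.41-fold higher level (limma adjusted p = 0.0358). Plagl1 was not called without knockout B (1.36, limma adjusted p = 0.0918), heterozygous A (1.39, 0.0802) or heterozygous B (0.87, 0.0980), though the difference stayed positive in each.

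H19 (ENSMUSG00000000031, chromosome 7, 142575529 to 142578143, minus strand) is a maternally expressed long non-coding RNA and the host of a microRNA that restrains growth. It had few reads: 24.1, 24.0 and 35.4 normalized reads in knockout A to C, and 4.04, 6.86 and 1 in heterozygous A to C. In whole reads these are 22, 27 and 35 in knockout cells, and 4, 7 and 1 in heterozygous cells. The groups did not overlap. The log2 difference was 2.73 ± 0.78 (SE), or 6.62-fold (limma adjusted p = 0.0435), and the authors' deposited table gave 2.81 with an adjusted p of 0.0392. The call rests close to the threshold. H19 was not called when any 1 library was left out (differences of 2.17 to 3.16, limma adjusted p = 0.0710 to 0.150). A pseudocount of 0.5 (0.0504) and a fit that kept all genes with a mean above 0 (0.0663) also ended the call, as did the replicate block (0.0706).

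Igf2 (ENSMUSG00000048583, chromosome 7, 142650766 to 142666816, minus strand), the growth factor gene next to H19, was near the floor of detection. In many tissues it is expressed from the paternal copy, and which copies these cells use was not measured. It had 0, 2.67 and 0 normalized reads in knockout A to C, and 6.05, 0.98 and 1 in heterozygous A to C. These are 3 reads in all in the knockout and 8 in the heterozygous libraries, a ratio of 0.379 with a 95% exact interval of 0.0648 to 1.58 that covers counting error only. A difference was not detectable at this depth, and a library at 0 allows up to 3 reads. Heterozygous A was the highest, and it was also the library with the most choroid plexus RNA, a known source of Igf2. The 12 choroid plexus markers summed to 51226 normalized reads there, against 1338 to 5180 in the other 5 libraries. Their part in the Igf2 value was not tested.

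Much of Igf2 overlaps other annotated genes. Of its 5723 annotated exon bases 3694 (64.5%) are shared with other annotated genes, leaving 2029 that are not. Gm49394, an annotated gene with every exon base shared, was at 0 in all 6 libraries. Across the table, protein-coding genes with all exon bases shared with a gene on the same strand were at 0 in 97 of 140 cases (69.3%), and those sharing all of them with the opposite strand in 33 of 34 cases (97.1%). Among genes sharing no exon base it was 3761 of 15462 (24.3%), and among those sharing part of their exon bases, as Igf2 does, 396 of 6261 (6.3%). How the authors' counting treated reads in shared bases is not given in the sources used here, so it cannot be told whether 0 to 6.05 normalized reads are the full level of Igf2. Shared bases made up 23.1% of the exon bases of Mest and 9.1% of those of H19, and at most 4.8% of those of each other member.

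**Figure D1:**
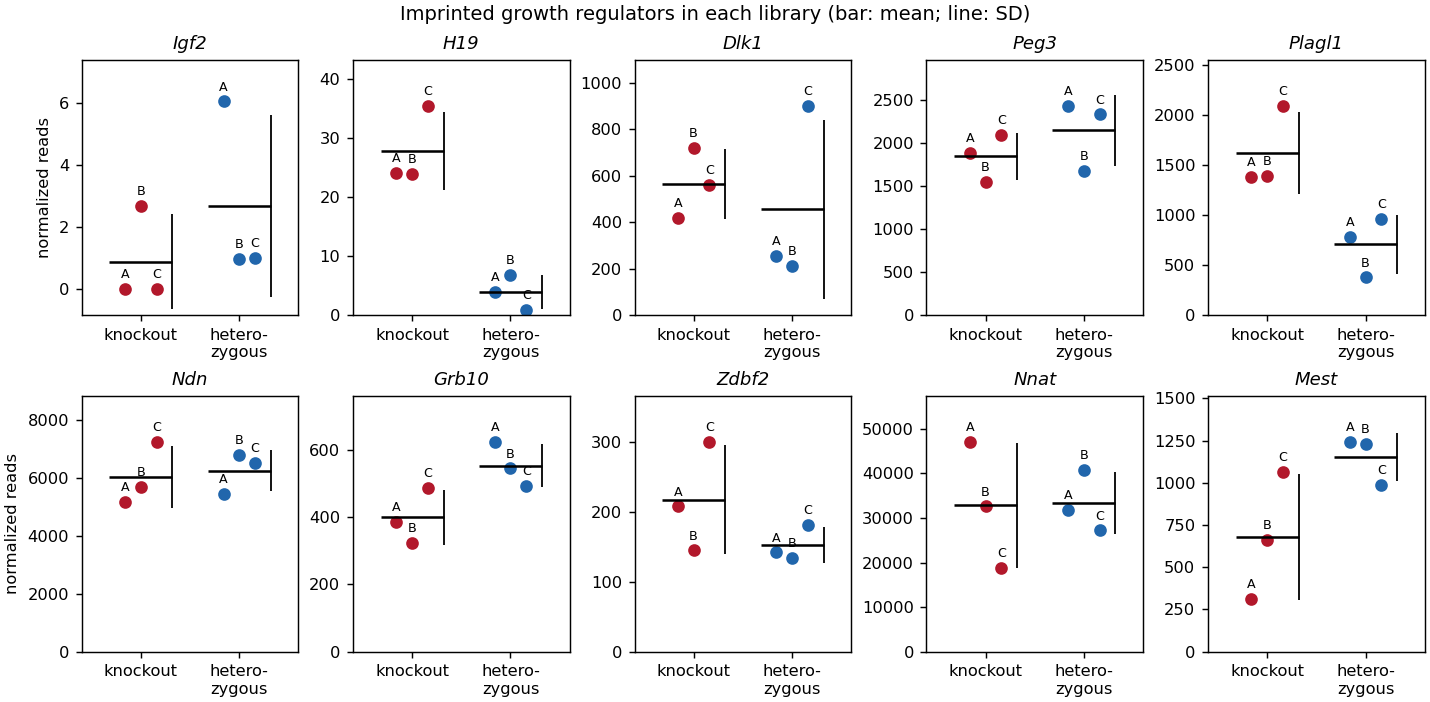
Normalized reads (linear vertical axis, own scale per panel) of the 10 imprinted growth regulators in knockout libraries A to C (left, red) and heterozygous libraries A to C (right, blue). Bars are group means and vertical lines the SD (n = 3 each). Knockout and heterozygous libraries do not overlap for H19 and Plagl1 (knockout higher) and Grb10 (knockout lower); Dlk1 has 1 heterozygous library at 899, above all others.

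Dlk1 and Mest were not called, but each passed the threshold when a particular library was left out. Dlk1 (ENSMUSG00000040856, chromosome 12, 109452823 to 109463336, plus strand) encodes a membrane-bound and secreted relative of the Notch ligands. In many tissues it is expressed from the paternal copy, and which copies these cells use was not measured. It had 420, 719 and 559 normalized reads in knockout A to C, and 256, 214 and 899 in heterozygous A to C. Heterozygous C was the highest of all 6, and the other heterozygous libraries were the lowest. The log2 difference was 0.59 ± 0.49 (95% interval -0.51 to 1.69, limma adjusted p = 0.427). Without heterozygous C it was 1.24 and passed the threshold (0.0409), whereas without heterozygous A it was 0.33 and without heterozygous B 0.20 (0.836).

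Mest (ENSMUSG00000051855, chromosome 6, 30723547 to 30748465, plus strand) encodes a paternally expressed enzyme of the alpha/beta hydrolase fold family. It had 314, 661 and 1062 normalized reads in knockout A to C, and 1240, 1229 and 986 in heterozygous A to C. Knockout A and B lay below all heterozygous libraries, and knockout C lay above heterozygous C. The difference was -0.92 ± 0.38 (95% interval -1.78 to -0.06 before adjustment, limma adjusted p = 0.127), without knockout C it was -1.33 (0.0115), and without knockout A it was -0.45 (0.275). Dividing cell markers, 10 genes, summed to 4189, 4557 and 8024 normalized reads in knockout A to C, against 39145, 42184 and 26622 in heterozygous A to C. Mest and those markers were thus both highest in library C among the knockouts and lowest in library C among the heterozygous libraries, a relation that was not tested.

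Grb10 and Nnat did not pass the test but show different patterns. Grb10 (ENSMUSG00000020176, chromosome 11, 11930508 to 12038683, minus strand) encodes an adaptor that binds the insulin and IGF1 receptors and restrains their signalling, expressed from the paternal copy in neurons and the maternal copy in most other tissues. It was at 386, 324 and 488 normalized reads in knockout A to C, and 623, 545 and 493 in heterozygous A to C. All knockout libraries lay below all heterozygous ones, by a narrow margin between the C libraries. The difference of -0.48 ± 0.24 (95% interval -1.03 to 0.06) did not pass (limma adjusted p = 0.192).

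Nnat (ENSMUSG00000067786, chromosome 2, 157560078 to 157562522, plus strand) encodes neuronatin, a small membrane protein of the endoplasmic reticulum expressed from the paternal copy. It had 47019, 32584 and 18872 normalized reads in knockout A to C, and 31770, 40868 and 27211 in heterozygous A to C. The knockout libraries spanned the whole range of the heterozygous ones. The difference was -0.10 ± 0.33 (95% interval -0.84 to 0.64, limma adjusted p = 0.860). Among the knockouts Nnat had the order of the ependymal markers, whose 14 genes summed to 75399, 46471 and 18999 in knockout A to C, against 15204, 12695 and 13287 in heterozygous A to C. The summed endothelial, mural and choroid plexus markers had the same order among the knockouts. Among the heterozygous libraries the orders differed, since Nnat was highest in B and the ependymal markers were highest in A. These relations were not tested. Nnat lies 2.99 Mb from E2f1 on the same chromosome, and any effect of that targeted locus nearby was not tested. No difference was called for Nnat or for its neighbour Blcap (-0.06, limma adjusted p = 0.841).

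Peg3, Ndn and Zdbf2 had overlapping groups and no call. Peg3 (ENSMUSG00000002265, chromosome 7, 6703892 to 6730431, minus strand), a paternally expressed zinc finger protein gene, had 1882, 1549 and 2093 normalized reads in knockout A to C, and 2424, 1676 and 2329 in heterozygous A to C. Its difference was -0.21 ± 0.21 (95% interval -0.69 to 0.26, limma adjusted p = 0.513). Ndn (ENSMUSG00000033585, chromosome 7, 62346569 to 62350262, plus strand) encodes necdin, a paternally expressed protein that binds E2F1 and restrains proliferation. It was at 5165, 5709 and 7243 normalized reads in knockout A to C, and at 5446, 6813 and 6515 in heterozygous A to C, a difference of -0.06 ± 0.19 (95% interval -0.50 to 0.38). The interval for Ndn excludes a 2-fold change in either direction. Zdbf2 (ENSMUSG00000027520, chromosome 1, 63273265 to 63314576, plus strand), a paternally expressed gene known in mice to affect feeding and growth after birth, had 208, 145 and 300 normalized reads in knockout A to C, and 142, 134 and 182 in heterozygous A to C. Its difference was 0.46 ± 0.34 (95% interval -0.31 to 1.23, limma adjusted p = 0.378).

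Levels of the members were compared with each other per kilobase of annotated exon. Nnat was the highest in every library, with 10318 to 25707 normalized reads per kb in knockout cells and 14877 to 22344 in heterozygous cells. Ndn followed with 1398 to 1961 in knockout cells and 1474 to 1844 in heterozygous cells. Both stood clear of all other members. In knockout cells Plagl1 (177 to 268), Mest (79.5 to 269), Peg3 (116 to 157) and Dlk1 (74.3 to 127) formed a middle range whose neighbours overlapped, except that all Plagl1 values lay above those of Peg3 and of Dlk1. In heterozygous cells Mest (250 to 314) lay above Peg3 (126 to 182), and Peg3 above Plagl1 (48.7 to 123). Plagl1 there overlapped with Dlk1 (37.8 to 159) and Grb10 (54.2 to 68.6). Per kb, Plagl1 thus exceeded Peg3 in all knockout libraries and was below it in all heterozygous ones. Grb10 in knockout cells had 35.7 to 53.7 normalized reads per kb. Zdbf2 (11.5 to 23.7 in knockout, 10.6 to 14.4 in heterozygous cells) and H19 (9.77 to 14.4 in knockout, 0.406 to 2.79 in heterozygous cells) overlapped in knockout cells only. Igf2 was lowest, with 0 to 0.467 in knockout and 0.171 to 1.06 in heterozygous cells, with the same limit from its shared exons.

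The imprinted neighbours of the members moved unevenly. Of 38 listed neighbours 36 were in the table and 25 were tested. Among these 1 was called higher and 3 lower, and the median difference was -0.43. The 4 calls of 25 are about the 15.8% of all tested genes. Groups did not overlap for 3 neighbours that were higher and 9 that were lower, or 12 of 25 against 38.7% of all tested genes.

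**Figure D2:**
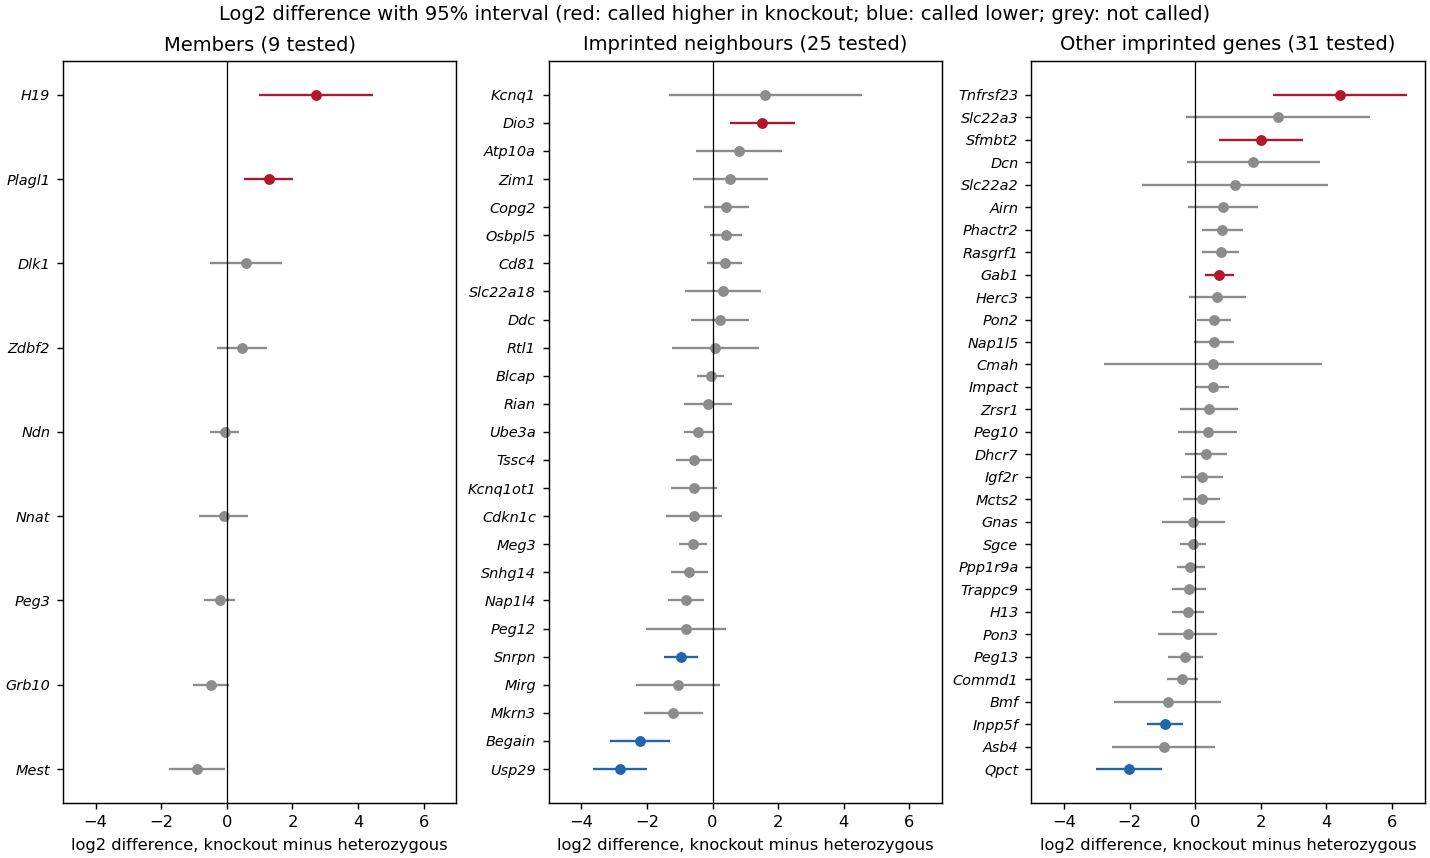
Log2 differences, knockout minus heterozygous (horizontal axis), with 95% intervals before adjustment, of the tested members (left), their imprinted neighbours (middle) and other imprinted genes (right). Red marks genes called higher in knockout cells, blue genes called lower and grey genes not called; Usp29 (-2.83) is the lowest of the neighbours and Tnfrsf23 (4.41) the highest of the other imprinted genes.

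Usp29 had the smallest p of the neighbours. It encodes a ubiquitin-specific protease, is paternally expressed and starts on the opposite strand next to Peg3 (ENSMUSG00000051527, chromosome 7, 6730578 to 6967219, plus strand). The 146 bases between the annotated starts of the 2 genes (chr7:6730432-6730577, GRCm38.p6, plus strand, 61.6% G and C, with 5 CpG) are shown because the genes diverge from it.
Peg3 to Usp29: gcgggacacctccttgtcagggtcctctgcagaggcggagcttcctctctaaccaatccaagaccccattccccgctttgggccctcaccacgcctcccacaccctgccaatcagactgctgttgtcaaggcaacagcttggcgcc
No E2F letters as spelled above, and no GGGGCCCC, the letters searched for the PLAGL1 factor, were in this stretch. GGGGCCCC occurred 201 bases before the Peg3 start, outside it, and in 0.89% of all promoter windows. Usp29 had 77.9, 51.6 and 44.5 normalized reads in knockout A to C, against 585, 356 and 323 in heterozygous A to C. The groups stood far apart. The difference was -2.83 ± 0.37 (SE), 7.10-fold lower (limma adjusted p = 0.00228), and the call held without any 1 library. Exons shared with other genes make up 14.8% of those of Usp29.

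Peg3 itself was not called, so the pair was compared within each library as a ratio of (normalized reads + 1). The size factor nearly cancels where both genes are well above 1 normalized read. The log2 ratio of Usp29 to Peg3 was -4.58, -4.88 and -5.52 in knockout A to C, and -2.05, -2.23 and -2.85 in heterozygous A to C. Its means were -4.99 ± 0.48 in knockout and -2.38 ± 0.42 in heterozygous cells (SD, n = 3 each), a difference of -2.62. The 2-sided exact permutation test gave p = 0.1, the smallest that 3 against 3 libraries allow, and 0.2 after adjustment over the 4 gene pairs compared. The ratio of Meg3 to Dlk1 was 4.25, 3.28 and 3.64 in knockout A to C, and 5.27, 5.93 and 3.52 in heterozygous A to C. Heterozygous C, the library with the most Dlk1, lay among the knockouts, and the difference of -1.18 gave p = 0.3 in the same exact test (0.3 adjusted). The ratios to Igf2 rest on its 0 to 6.05 normalized reads. In knockout A and C, where Igf2 was at 0, they rest on the added 1. That of H19 to Igf2 differed by 3.70 (exact p = 0.1, adjusted 0.2) and that of Igf2r to Igf2 by 1.18 (exact p = 0.3, adjusted 0.3).

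**Figure D3:**
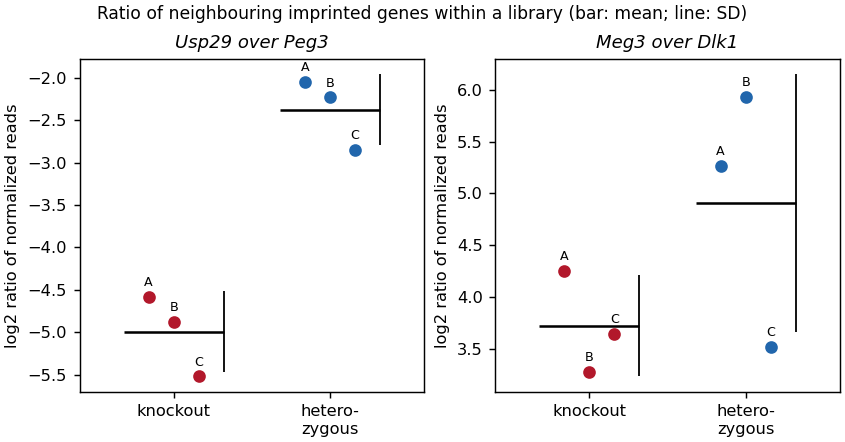
Log2 ratio of normalized reads (vertical axis) of Usp29 over Peg3 (left panel) and Meg3 over Dlk1 (right panel), in knockout (left, red) and heterozygous libraries (right, blue); bars are means and vertical lines the SD (n = 3 each). For Usp29 over Peg3 the knockout libraries lie between -5.52 and -4.58 and the heterozygous libraries between -2.85 and -2.05; for Meg3 over Dlk1 the groups overlap through heterozygous C.

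On chromosome 12 the neighbours of Dlk1 went in different directions. Begain, upstream of Dlk1, encodes a protein of the postsynaptic density. It had 131, 56.1 and 122 normalized reads in knockout A to C, against 356, 680 and 374 in heterozygous A to C. All knockout libraries were lower, by 2.21 on the log2 scale (-2.21 ± 0.41, limma adjusted p = 0.0102). It was not called without heterozygous B (-1.91, 0.0637). Dio3, at the other end of the cluster, encodes the deiodinase that inactivates thyroid hormone. It was at 156, 194 and 401 normalized reads in knockout A to C, against 83.7, 53.9 and 110 in heterozygous A to C. Its difference of 1.52 ± 0.44 passed (limma adjusted p = 0.0452) with groups that did not overlap. Only the fit without knockout A, among those that left out 1 library, kept the Dio3 call.

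Meg3, the maternally expressed long non-coding RNA of the same cluster, had 7997, 7012 and 6992 normalized reads in knockout A to C, against 9915, 13083 and 10306 in heterozygous A to C. The groups did not overlap, and the difference of -0.59 ± 0.19 was just short of a call (95% interval -1.01 to -0.17, limma adjusted p = 0.0578). In the authors' deposited table Meg3 was at -0.60 with an adjusted p of 0.0256. Rian, another maternally expressed RNA of this cluster, had a difference of -0.13 (95% interval -0.87 to 0.60, limma adjusted p = 0.806).

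Near Ndn on chromosome 7, Snrpn, which encodes a spliceosomal protein of neurons, fell. It had 2151, 2028 and 2705 normalized reads in knockout A to C, against 4229, 6033 and 3417 in heterozygous A to C, with no overlap. The difference was -0.96 ± 0.24 (limma adjusted p = 0.0267), and it was not called without knockout B (-0.88, 0.118), heterozygous A (0.0797) or heterozygous B (-0.74, 0.0924). Exons shared with other genes, among them Snurf, make up 34.1% of those of Snrpn. Snhg14 (-0.71, limma adjusted p = 0.0830) and Mkrn3 (-1.20, 0.0714), from the same region, were not called, although the knockout libraries of each lay below all heterozygous ones. Near H19 and Igf2, the growth inhibitor gene Cdkn1c was at 510, 295 and 184 normalized reads in knockout A to C, and at 488, 567 and 332 in heterozygous A to C. Its groups overlapped and it was not called (-0.58 ± 0.38, 95% interval -1.43 to 0.28, limma adjusted p = 0.316). The 21 tested neighbours without a call had differences between -1.20 and 1.61.

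**Figure D4:**
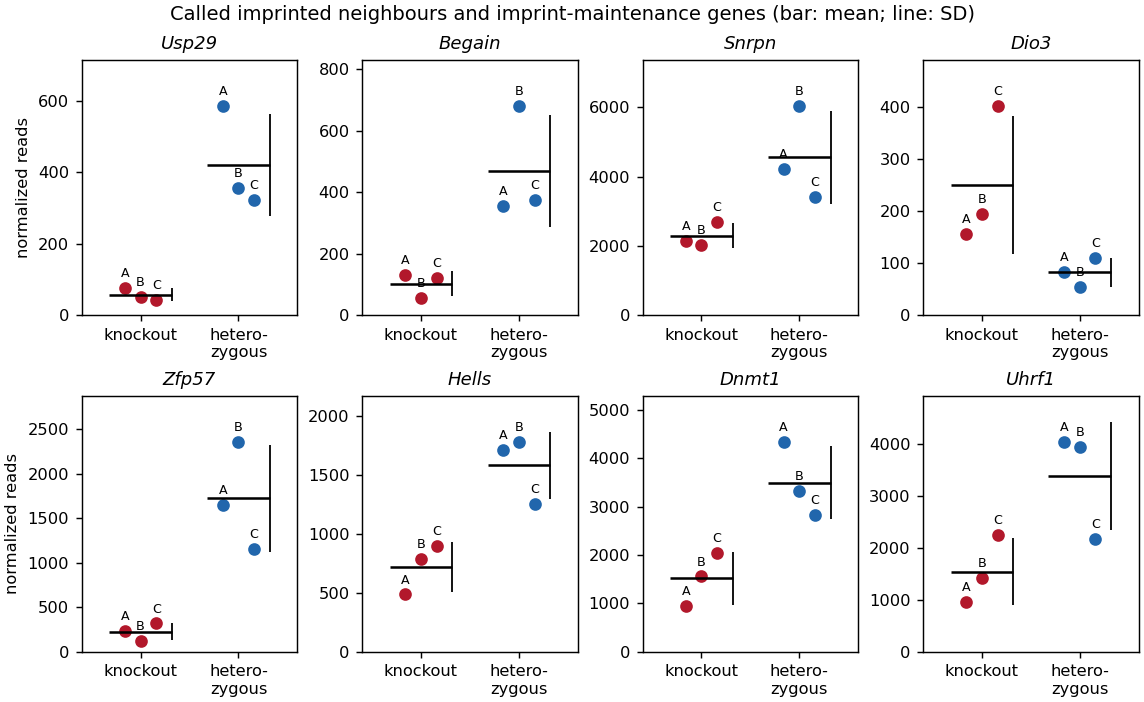
Normalized reads (linear vertical axis, own scale per panel) of the 4 called neighbours (top) and 4 of the 5 called genes that maintain imprints (bottom) in knockout (left, red) and heterozygous libraries (right, blue); bars are means and vertical lines the SD (n = 3 each). Dio3 is higher in every knockout library, and the other genes are lower, with Uhrf1 overlapping through knockout C (2242) and heterozygous C (2173).

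Genes on the imprint maintenance list were called only downward. Besides genes that keep imprints, it holds some that lay down or remove DNA methylation, among them Dnmt3a, Tet1, Tet2 and Tet3. Of 19 listed, 15 were tested, 5 were called lower and 0 higher, against 8.59% and 7.23% of all tested genes, and the median difference was -0.48 with 0 of the 15 positive. None was called higher by limma, edgeR or DESeq2, and 0 were higher at an unadjusted p under 0.05. Without knockout B, heterozygous A or heterozygous B 1 was called lower, and without knockout A 3 were. Zfp57, the zinc finger protein that keeps methylation at imprinting control regions in the early mouse embryo, had 233, 122 and 316 normalized reads in knockout A to C, against 1654, 2355 and 1159 in heterozygous A to C. It was 7.92-fold lower in knockout cells (-2.99 ± 0.38, limma adjusted p = 0.00205). Hells, a chromatin remodeller of DNA methylation (-1.16 ± 0.27), and Dnmt1, the maintenance methyltransferase (-1.25 ± 0.29), were also lower, each with a limma adjusted p of 0.0217. Uhrf1, which brings Dnmt1 to newly copied DNA (-1.17 ± 0.34, limma adjusted p = 0.0452), and Ctcf, which insulates Igf2 on the maternal copy (-0.72 ± 0.21, 0.0453), completed the 5. Without knockout B, heterozygous A or heterozygous B neither Hells nor Dnmt1 was called (limma adjusted p = 0.0667 to 0.1). Zfp445, the other zinc finger protein known to protect imprints, was not called (-0.08, 95% interval -0.50 to 0.34). The methylation of imprinting control regions was not measured.

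Between the groups, the lower levels of Usp29, Begain, Snrpn and the called imprint maintenance genes went with lower markers of neuroblasts and dividing cells. All 15 neuroblast markers were called lower, and they summed to 16790, 15133 and 19635 normalized reads in knockout A to C, against 123474, 133386 and 82938 in heterozygous A to C. Gad2 (11.6-fold), Sox11 (9.70-fold) and Stmn2 (8.06-fold) led them. All 10 dividing cell markers were also called lower, led by Mki67 (10.8-fold), Ube2c (6.59-fold) and Aurkb (7.66-fold). In such bulk libraries fewer cells of a type and less RNA per cell cannot be told apart. Within the groups Snrpn had the library order of the neuroblast sums, whereas Usp29 and Begain did not. Usp29 was lowest in knockout C, where the neuroblast and dividing cell sums were the highest of the knockouts. The part of these cell types in the lower levels was not tested. When any 1 library was left out, 14 or 15 neuroblast and 10 dividing cell markers were still called.

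In the other marker lists 3 of 15 quiescent stem cell and astrocyte genes were called higher (Gfap 2.14-fold, Id3 2.54-fold, Sox9 1.74-fold) and 7 of 14 ependymal genes, led by Foxj1 (4.08-fold), Cfap44 (3.50-fold) and Cfap43 (3.48-fold). edgeR and the replicate block each called 12 of the ependymal genes, and DESeq2 called 13. Of 11 tested fibroblast and leptomeningeal markers 2 were called higher, Col1a1 (5.38-fold) and Islr (2.12-fold). Of 10 mural cell markers 1 was, Pdgfrb (2.23-fold). Over all tested genes 7.23% were called higher, so the mural share was near the background. Without heterozygous B none of these quiescent, ependymal or mural markers was called and 1 fibroblast marker was. Without heterozygous A the counts were 1, 2, 0 and 1, and without knockout B they were 1, 1, 0 and 1. Without knockout A 8 quiescent and 4 ependymal markers were called, without knockout C 13 ependymal and 6 mural, and without heterozygous C 2 ependymal.

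None of the tested markers of endothelial cells (12), choroid plexus (12), microglia (12) or the oligodendrocyte lineage (11) was called by limma or by edgeR with TMM scaling. Higher at an unadjusted limma p under 0.05 were 2, 1, 0 and 4 of them, and DESeq2 called 4, 0, 0 and 1. Without knockout C all 12 endothelial markers and 1 choroid plexus marker were called higher, without heterozygous C 3 of the oligodendrocyte lineage were, and without heterozygous A 1 of the choroid plexus was. Without knockout A 1 microglial marker was called lower. The smallest unadjusted limma p was 0.0414 among the endothelial markers (Cldn5), 0.0426 among those of the choroid plexus (Otx2) and 0.0118 among those of the oligodendrocyte lineage (Mog). Of 10 mature neuron markers 2 were called higher (Ppp1r1b and Camk2a) and 4 lower, among them Snap25, Syt1 and Drd2. Over all tested genes 7.23% were called higher and 8.59% lower. Without knockout B, heterozygous A or heterozygous B 1 mature neuron marker was called lower. H19 and Plagl1 were both highest in knockout C, where the 12 endothelial markers summed to 4164 normalized reads, against 35095 and 12972 in knockout A and B and 5767 to 6338 in the heterozygous libraries. The mean log2 level of the fibroblast and leptomeningeal markers was 7.21, 6.89 and 6.40 in knockout A to C, and 5.94, 5.07 and 6.11 in heterozygous A to C. By this measure it too was lowest in C among the knockouts but above all heterozygous libraries. Their sums gave another order, with 3786, 4167 and 6142 normalized reads in knockout A to C, and 1786, 1720 and 5418 in heterozygous A to C. By the sum they were highest in knockout C, and heterozygous C lay above knockout A and B. The quiescent stem cell and astrocyte markers summed to 601745, 919980 and 1055514 normalized reads in knockout A to C. In heterozygous A to C they summed to 537659, 483695 and 696409. Plagl1 had the order of these sums within each group and H19 did not. Their mean log2 level was higher in all knockout libraries, though by the sum heterozygous C lay above knockout A. The part of any of these cells in the H19 and Plagl1 calls was not tested.

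**Figure D5:**
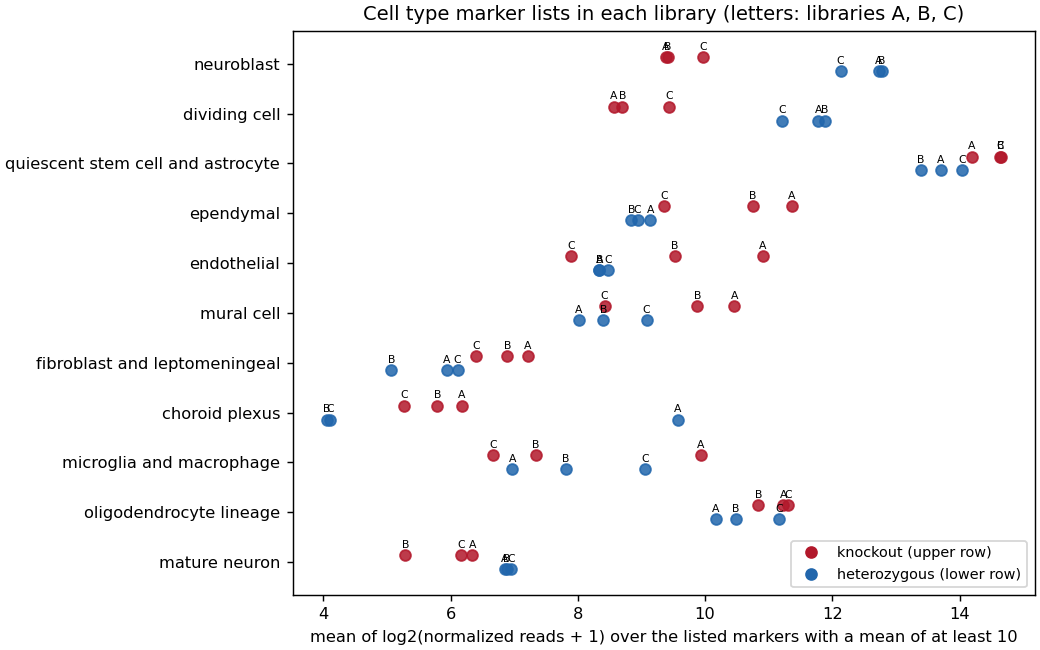
Mean of log2(normalized reads + 1) over the tested markers of each cell type (horizontal axis) in knockout libraries (upper row of each pair, red) and heterozygous libraries (lower row, blue), lettered A, B and C. By this mean, neuroblast, dividing cell and mature neuron markers are lower in all knockout libraries. Ependymal, quiescent and fibroblast markers are higher in all of them, and choroid plexus markers are highest in heterozygous A (9.57).

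Genes of the IGF and insulin pathway, on which Igf2 and Grb10 act, showed 3 calls among 25 tested, all higher, against 15.8% of all tested genes in either direction, so the share was not above the background. The median was 0.20 (0 lower with limma or edgeR, 1 with DESeq2, and 2 at an unadjusted p under 0.05). Of the receptors, Igf1r was at 2141, 1628 and 1661 normalized reads in knockout A to C, and at 2238, 1455 and 1611 in heterozygous A to C. Its difference was 0.05 (95% interval -0.44 to 0.54). Igf2r, the clearance receptor for IGF2 and itself imprinted, differed by 0.21 (-0.43 to 0.84), and the insulin receptor gene Insr by -0.23 (-0.73 to 0.27). None of the 3 receptors was called. Grb14, a relative of Grb10 that also restrains insulin receptor signalling, had 1153, 940 and 801 normalized reads in knockout A to C, against 443, 372 and 489 in heterozygous A to C (1.14 ± 0.23, limma adjusted p = 0.0135). The adaptors thus differed in direction, since Grb10 was lower in all knockout libraries but not called. Foxo1, a transcription factor held out of the nucleus by insulin signalling, rose 1.80-fold (0.85 ± 0.22, limma adjusted p = 0.0350), and Mtor, a growth kinase, rose 1.68-fold (0.75 ± 0.21, 0.0435). None of these 3 calls held without knockout B, heterozygous A or heterozygous B. Foxo1 was also not called without knockout C (limma adjusted p = 0.0553). The Mtor call was lost when any 1 library was left out and with the replicate block (limma adjusted p = 0.0892). It was also lost in limma fits with a mean of at least 1 (0.0556) or above 0 (0.061).

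Of 37 other listed imprinted genes 36 were in the table and 31 were tested. Among these 3 were called higher and 2 lower, against 15.8% of all tested genes in either direction, with a median of 0.38. Tnfrsf23, a decoy receptor gene for the death ligand TRAIL, had 84.5, 21.4 and 19.2 normalized reads in knockout A to C, against 1.01, 0 and 1 in heterozygous A to C. This is 120 reads in knockout and 2 in heterozygous libraries, a ratio of 60.7 (95% exact interval 16.4 to 507, counting error only), while the fitted log2 difference was 4.41 ± 0.91 (limma adjusted p = 0.0152). Tnfrsf23 lies between Nap1l4 and Osbpl5, neighbours of H19 and Igf2, so this list is not wholly apart from the members' clusters. Dhcr7 and Phactr2, 2 uncalled genes of the list, also lie near members. Related receptor genes lie beside Tnfrsf23, and reads shared between them could be split. Sfmbt2, a Polycomb-group gene, was at 124, 119 and 169 normalized reads in knockout A to C, against 45.4, 12.7 and 60.0 in heterozygous A to C (2.01 ± 0.57, limma adjusted p = 0.0435). edgeR did not call Sfmbt2 (adjusted p = 0.0596). Gab1, an adaptor of growth factor receptors, rose 1.66-fold (0.74 ± 0.20, limma adjusted p = 0.0353). Qpct, a glutaminyl cyclase gene (-2.02 ± 0.45, limma adjusted p = 0.0201), and Inpp5f, a phosphoinositide phosphatase gene (-0.92 ± 0.24, 0.0351), fell. Gab1 was called only without knockout A among the fits that left out 1 library, and Sfmbt2 only without heterozygous C. Inpp5f kept its call without knockout C or heterozygous C, and Qpct without knockout A or C. Tnfrsf23 lost its call without knockout B (limma adjusted p = 0.0667) or heterozygous B (0.0597). The replicate block ended the calls of Gab1 (0.0802) and Inpp5f (0.0633).

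The genes with profiles most like those of the called members were found by the root-mean-square distance of log2 values over the 6 libraries, each gene centred on its mean. For Plagl1 they were Tshr, Med12l and Spata3, each at 0.12 among 14134 genes with a mean of at least 50. Tshr, the thyrotropin receptor gene, had 351, 344 and 563 normalized reads in knockout A to C, against 241, 111 and 241 in heterozygous A to C. For H19 they were Abhd1 (0.46), P2ry2 (0.55) and Gm4353 (0.55) among 14135 genes. Abhd1 had 57.0, 124 and 141 normalized reads in knockout A to C, against 12.1, 37.2 and 9 in heterozygous A to C. The closest profiles to Plagl1 were much nearer than those to H19, whose heterozygous values rest on 12 reads in all.

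Depth was 19798675 to 25982361 reads in genes per library. The targeted gene E2f1 was at 375, 483 and 516 normalized reads in knockout A to C, against 1152, 1388 and 1030 in heterozygous A to C (-1.38 ± 0.22, limma adjusted p = 0.00559), lower but present in every knockout library. E2f3 had 324, 231 and 245 normalized reads in knockout A to C, and 293, 205 and 253 in heterozygous A to C (0.09 ± 0.28, limma adjusted p = 0.845). Reads over the whole gene do not show whether its floxed part was removed. Over all genes 1318 were called higher and 1565 lower, a balance that turned to 1572 and 1406 with upper-quartile scaling. The series calls its 3 libraries per genotype biological replicates.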

How the data were processed

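The authors aligned and counted reads with HISAT2 and featureCounts (Subread) on GRCm38 and compared groups with DESeq2, per the submitters' processing notes; versions, strand and overlap settings are not given in the sources used here. The signal deposited for each library is the count of reads divided by a size factor. The authors' log2 fold changes, p-values, and statistic and weight scores, per the file headers, were used only where named. Whole reads were recovered for 100% of values (within 0.001 reads), and edgeR 4.0.16 and DESeq2 1.42.0 were run on them as alternatives.

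The main test was limma 3.58.1 (R 4.3.3, mean-variance trend, 2-sided) on log2(value + 1), genotype only, mean of at least 10. On data simulated from these libraries (17680 genes, knockout against heterozygous) 11% of 2-fold and 66% of 4-fold changes were recovered, and 4.94% of calls were false. Few genes were changed in the simulation, and limma made 81 calls there, against 2883 in the data. These shares therefore do not give the recovery or the false share of the test on the data. No 2 libraries agreed within sampling noise. Coordinates and exon lengths came from GENCODE M21 (55141 of 55487 IDs matched), promoter sequences from RefSeq (GRCm38.p6). Figures used matplotlib 3.10.9, exact tests scipy 1.17.1.

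Members and gene lists were chosen with earlier results of these data known. Named by rule were the members, called neighbours, up to 3 called genes per direction of each other list (with none called, the smallest p), and the 3 nearest profiles of each called member. A gene under this rule is not reported here. Meg3, Rian, Snhg14, Mkrn3, Cdkn1c, Blcap, Uhrf1, Ctcf, Zfp445, Atp10a, Igf1r, Igf2r, Insr, Dhcr7, Phactr2 and Gm49394 were added after their values were seen. Alternatives covered pseudocounts, filters, thresholds, tools, scaling, the omission of each library in turn, and a replicate block.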

Additional observations from a re-analysis of the deposited data

How the results depend on the processing

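Over 860 alternatives for the named genes 712 kept direction and side of the threshold, 133 lost the call, 8 gained it and 7 reversed. For the members it was 138, 14, 2 and 7 of 161. These alternatives include thresholds of 0.01 and 0.1 applied to the main fit, which are not separate fits. The reversals were those of Ndn and Nnat, whose differences are near 0. Ndn was at 0.03 with upper-quartile scaling and between -0.20 and 0.05 without 1 library. Nnat was at 0.03 with TMM, 0.09 with upper-quartile scaling and between -0.40 and 0.25 without 1 library. Of the members 1 was called higher, not 2, with a pseudocount of 0.5, with all genes above 0, with a mean of at least 50 (H19 then falls under the minimum) or with a replicate block, 0 at a threshold of 0.01, and 0 to 2 without 1 library; 0 to 1 was called lower without 1 library. Of the neighbours 0, not 1, was called higher with a mean of at least 1, with all genes above 0 or at 0.01, and 0 to 1 without 1 library. Called lower were 6 neighbours with DESeq2, 1 at 0.01, 7 at 0.1, and 1 to 5 without 1 library, against 3. Of the other imprinted genes 1 was called higher with all genes above 0, 6 with DESeq2, 0 at 0.01, 5 at 0.1, and 0 to 3 without 1 library, against 3; 1 was called lower with the replicate block, 0 at 0.01, and 0 to 2 without 1 library, against 2. Apart from the minimum and the thresholds the cause was not tested. The library letters did not pair the libraries (correlation of deviations -0.07, 0.02 and -0.10 for A, B and C), and over all genes the replicate block called 1105 higher and 1205 lower. The counts over all genes were lowest without heterozygous B (166 higher, 469 lower), knockout B (109 and 588) and heterozygous A (325 and 581). DESeq2 called 2321 higher and 2137 lower. In the simulation 29.82% of its calls were false. That simulation changed few genes and gave 171 DESeq2 calls in all, so the share cannot be carried over to these counts. The 3 libraries per group and, for Igf2 and H19, the few reads limit what could be called.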
